A study of Mus musculus with 4 samples.

Results

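Sycp2l, Smc1b, Tdrd6 and Tex16 are germline and meiosis genes that were listed as changed in mouse embryonic stem cells when Mrhl, a long non-coding RNA, was targeted by an shRNA. They are 4 of the 1132 distinct gene symbols in 2 deposited tables. The lower table holds 722 symbols listed as lower in sh-Mrhl, and the higher table holds 411 listed as higher. The 4 genes were chosen by name from these tables, so their presence there and the direction and size of their values are a description and carry no test. Sycp2l and Smc1b were in the higher table, Tdrd6 was in the lower table, and Tex16 was in both, which gave 5 entries in all.

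The cells were E14tg2a, an established embryonic stem cell line of the 129/Ola strain kept on gelatine-coated dishes. They received a scrambled shRNA, 2 libraries, or shRNA 4 against Mrhl, 2 libraries, and the treatment lasted 48 hours. The treatment protocol describes transient transfection, while a label field names a lentivirus, and no separate cultures are named for the replicates. Neither Mrhl nor Phkb, the gene whose intron holds it, was a listed symbol, so the knockdown could not be checked from the tables. Mrhl is not a gene symbol in GENCODE M21, so nothing is read from its absence under that name.

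Each table gives 1 signed fold change per gene for sh-Mrhl against scrambled, negative where a gene was lower. The tables as analysed hold no value per library, no expression level, no depth and no p-value, so no value below has a replicate error. Whether the fold change is on a log2 or a signed linear scale is not given in the sources used here, and values are printed as deposited. "Listed as higher" and "listed as lower" mean only that the authors placed the gene in that table. In bulk RNA a difference in the level per cell and a difference in the number of cells that carry a transcript cannot be told apart.

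Germ cells run a programme of their own. Primordial germ cells enter meiosis in the fetal ovary or, after a spermatogonial phase, in the postnatal testis, and there the chromosomes are bound by meiosis-specific cohesin, broken, paired along the synaptonemal complex and recombined. Male germ cells then pass through a spermatid stage in which RNA and the proteins that guard it gather in a granule called the chromatoid body. Many genes of this programme are silent in somatic cells through DNA methylation and through a repressive complex that carries E2F6 and the E-box binding factors MGA and MAX, and Smc1b is among the genes reported to be held silent by E2F6.

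For Sycp2l, Smc1b and Tex16 the 300 bases around an annotated start are shown, because the start of a germline gene is where this silencing is known to act and because these windows differ in their content of CpG, the pair of bases that is methylated. They are RefSeq sequences of GRCm38.p6, 250 bases before and 50 after the start, written 5′ to 3′ on the gene's strand, with each CpG in capitals. The windows lie at chr13:41114169-41114468 on the plus strand for Sycp2l, at chr15:85131908-85132207 on the minus strand for Smc1b, and at chrX:112093270-112093569 on the plus strand for Tex16.
Sycp2l: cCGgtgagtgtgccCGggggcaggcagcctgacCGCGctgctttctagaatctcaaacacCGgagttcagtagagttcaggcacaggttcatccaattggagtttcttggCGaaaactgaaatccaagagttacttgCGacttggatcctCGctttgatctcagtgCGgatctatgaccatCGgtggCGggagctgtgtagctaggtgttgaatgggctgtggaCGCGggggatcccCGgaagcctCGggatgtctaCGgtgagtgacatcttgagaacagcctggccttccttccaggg
Smc1b: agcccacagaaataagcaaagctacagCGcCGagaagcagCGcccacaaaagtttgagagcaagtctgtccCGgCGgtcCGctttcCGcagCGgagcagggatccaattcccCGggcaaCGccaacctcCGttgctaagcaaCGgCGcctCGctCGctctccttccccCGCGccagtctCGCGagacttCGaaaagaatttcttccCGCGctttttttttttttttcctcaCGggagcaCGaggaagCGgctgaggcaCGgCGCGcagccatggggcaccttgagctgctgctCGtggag
Tex16: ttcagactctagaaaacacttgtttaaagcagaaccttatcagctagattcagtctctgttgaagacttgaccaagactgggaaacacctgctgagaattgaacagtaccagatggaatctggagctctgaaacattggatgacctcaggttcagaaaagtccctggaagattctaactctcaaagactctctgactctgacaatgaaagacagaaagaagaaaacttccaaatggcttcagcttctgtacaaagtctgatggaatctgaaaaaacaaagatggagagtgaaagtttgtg

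Smc1b had 29 CpG pairs in its window, and 12.9% of the 32817 promoter windows in the table held at least as many. Sycp2l had 16 CpG pairs, a number reached by 33.0% of windows, and Tex16 had 0. The median window held 7, so Smc1b and Sycp2l lay above it and the Tex16 window lay at the bottom of the range. That window surrounds the start of a transcript inside the gene, 82513 bases from the gene's left end. It describes that start alone and not the leftmost annotated start of Tex16. The GC content was 60.0% for Smc1b, 56.0% for Sycp2l and 40.3% for Tex16, against a median of 52.7%.

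The E2F core TCCCGC and the E-box CACGTG were searched on both strands. The E2F core was found 1 time in the Smc1b window, on the gene's strand from -47 to -42 relative to the start. It was also found 1 time in the Sycp2l window, on the opposite strand from -64 to -59, and not in that of Tex16. These positions are relative to the RefSeq start. For Sycp2l the GENCODE M21 start, at 41114307, lies further left inside the window. The Sycp2l core therefore falls within the first GENCODE exon and not before the GENCODE start. Of all windows 20.0% held it. The E-box, present in 7.15% of windows, was in none of the 3, so no matches overlapped. A match of letters is a description of the sequence and was not tested for binding.

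**Figure D1:**
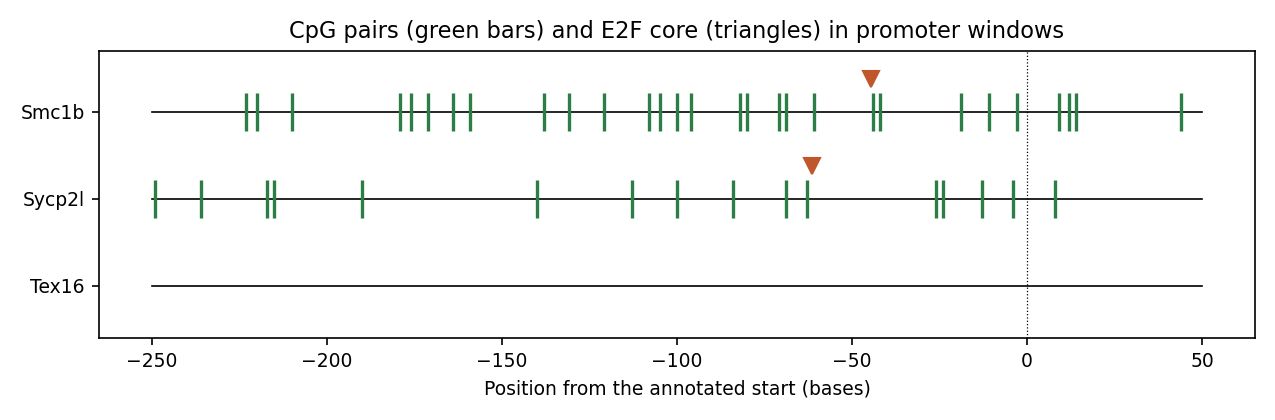
Positions of CpG pairs (green bars) and of the E2F core (triangles) from 250 bases before to 50 bases after the annotated RefSeq start of Smc1b, Sycp2l and Tex16, in bases from the start. For Sycp2l the GENCODE start lies inside the window, to the left of the core. Smc1b carries 29 CpG pairs and Sycp2l 16, each with 1 E2F core, and Tex16, at a start inside the gene, carries 0 CpG pairs.

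Sycp2l had the most extreme value of the 4 genes. It encodes a relative of the synaptonemal complex axis protein SYCP2, and in the mouse it is an oocyte protein found at centromeres during late meiotic prophase and in the arrested oocyte, where it is needed for the survival of primordial follicles. The authors' deposited table gave 4.32 for Sycp2l, which was rank 5 of 411 symbols in the higher table and rank 3 of the 207 protein-coding symbols there. The next smaller value in the authors' deposited table was 3.94 for Slc24a2. No other symbol of the higher table came within 0.05 of Sycp2l, so it stood in the thin upper tail of the table.

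Sycp2l lies on chromosome 13 from 41114307 to 41174351 on the plus strand in GRCm38 (mm10). GENCODE M21 gives it 3 transcripts, and the longest has 29 exons with 2641 exonic bases, 2526 of them coding. No annotated gene overlaps it. The nearest protein-coding genes are Gcm2, 3271 bp to the left, and Elovl2, 8029 bp to the right, and neither was listed. The nearest listed gene, Ppp1r3g, was 5144 kb away and listed as lower, at -1.83 in the authors' deposited table.

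Smc1b was also listed as higher, but with a value in the dense middle of the table. It encodes the meiosis-specific form of the SMC1 cohesin subunit, which pairs with SMC3, anchors chromatin loops to the chromosome axis, protects telomeres and keeps sister chromatids together in oocytes, and which both male and female mice need to be fertile. The authors' deposited table gave 1.89 for Smc1b, rank 241 of 411 and rank 136 of the 207 protein-coding symbols. The median of the higher table was 1.94 in the authors' deposited values, slightly above Smc1b. The higher table held 69 further symbols within 0.05 of Smc1b, so its rank says little.

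Smc1b lies on chromosome 15 from 85064689 to 85131964 on the minus strand, with 25 exons and 4047 exonic bases in its longest transcript, of which 3744 are coding. Its start faces that of Ribc2 on the opposite strand, 113 bp away, so the promoter window printed for Smc1b reaches into Ribc2. Ribc2 was in neither table, nor was Gm10923, a processed pseudogene on the opposite strand inside Smc1b. Whether the authors' counting used strand is not given in the sources used here. The nearest listed gene to Smc1b was 3872 kb away.

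Tdrd6 was the member with a value listed on the lower side alone. It encodes a protein with many tudor domains, which bind methylated arginines such as those of PIWI proteins. In the mouse it is a building block of the chromatoid body, and spermatids lacking it do not complete their development. The authors' deposited table gave -2.84 for Tdrd6, rank 70 of 722 and rank 43 of the 348 protein-coding symbols. The median of the lower table was -1.91 in the authors' deposited values, and 9.70% of its symbols lay at or beyond Tdrd6. The lower table held 17 further symbols within 0.05 of Tdrd6, fewer than around Smc1b and more than around Sycp2l. The neighbours in rank were Gm21182 at -2.85 and Gm15910 at -2.83 in the authors' deposited table.

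Tdrd6 lies on chromosome 17 from 43615335 to 43630299 on the minus strand. A single exon of 6193 bases makes up 87.7% of the 7059 exonic bases of its longest transcript. In the other coding transcripts of Tdrd6 the longest exon makes up 93.9% and 64.7%. In the longest transcript of each other gene that share is 61.1% for Tex16, 10.3% for Smc1b and 5.83% for Sycp2l. No annotated gene overlaps it, and its neighbours Pla2g7, 3133 bp away, and Slc25a27, 11591 bp away, were not listed. The nearest listed gene was Runx2, the osteoblast regulator, 866 kb to the right and listed as lower at -2.51 in the authors' deposited table.

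**Figure D2:**
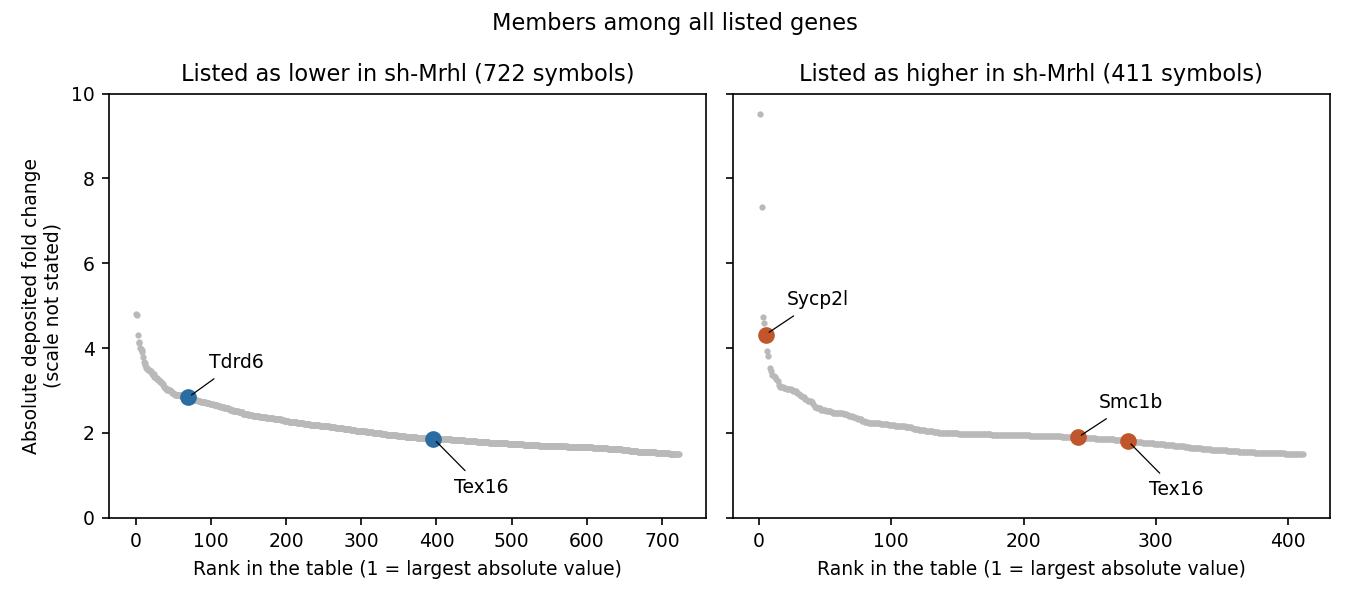
Absolute deposited fold change (y axis, scale not stated) against rank (x axis) for the 722 symbols of the lower table (left) and the 411 of the higher table (right); grey points are all symbols and coloured points the 4 genes. Sycp2l, at 4.32, is 5th from the top of the higher table and Tdrd6, at -2.84, is at rank 70 of the lower table, while Smc1b and both entries of Tex16 lie on the flat part below 2.

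Tex16 was listed in both directions and therefore has no direction of its own. It is an X-linked gene first named for expression in the testis, in male germ cells before meiosis, and its molecular role is not established. The authors' deposited tables gave -1.87 for Tex16 in the lower table, rank 396 of 722, and 1.81 in the higher table, rank 279 of 411. Both entries carry the same gene type and description, and their absolute values lie below the median of their table. Tex16 was the only symbol, 1 of 1132, found in both tables. Repeats within a table occurred for 7 lower and 3 higher symbols, and each of these had the same value in all its rows.

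Tex16 spans chromosome X from 112011007 to 112127326 on the plus strand, and its 3 annotated transcripts form separate blocks. A transcript of 5 short exons, 447 bases in all, ends at 112093089, and the other 2 transcripts lie to its right, the first of them starting 406 bp beyond that end, and hold 4 exons each, with 3996 and 3972 exonic bases. No annotated transcript joins the blocks. The promoter window printed above belongs to the right block. The tables give a symbol and no transcript or locus identifier, so which transcript each entry of Tex16 describes is unknown, and whether the blocks underlie the separate entries was not tested.

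The left block of Tex16 also shares 142 exonic bases with Gm45194, a protein-coding gene model on the same strand that spans the whole of Tex16 from 111891389 to 112240590, whereas the right block shares 0. Gm14900, a processed pseudogene on the same strand, also lies within the span of Tex16 and was in neither table. Of the distinct runs of 50 bases in Tex16 transcripts, 2.14% also occur in transcripts of Gm45194, and no other gene shares any. For Sycp2l, Smc1b and Tdrd6 no run of 50 bases occurs in transcripts of another gene on either strand. Reads of these 3 genes at least that long and without mismatches would therefore have 1 source gene among annotated transcripts, while part of those of Tex16 could be given to Gm45194, which was in neither table.

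**Figure D3:**
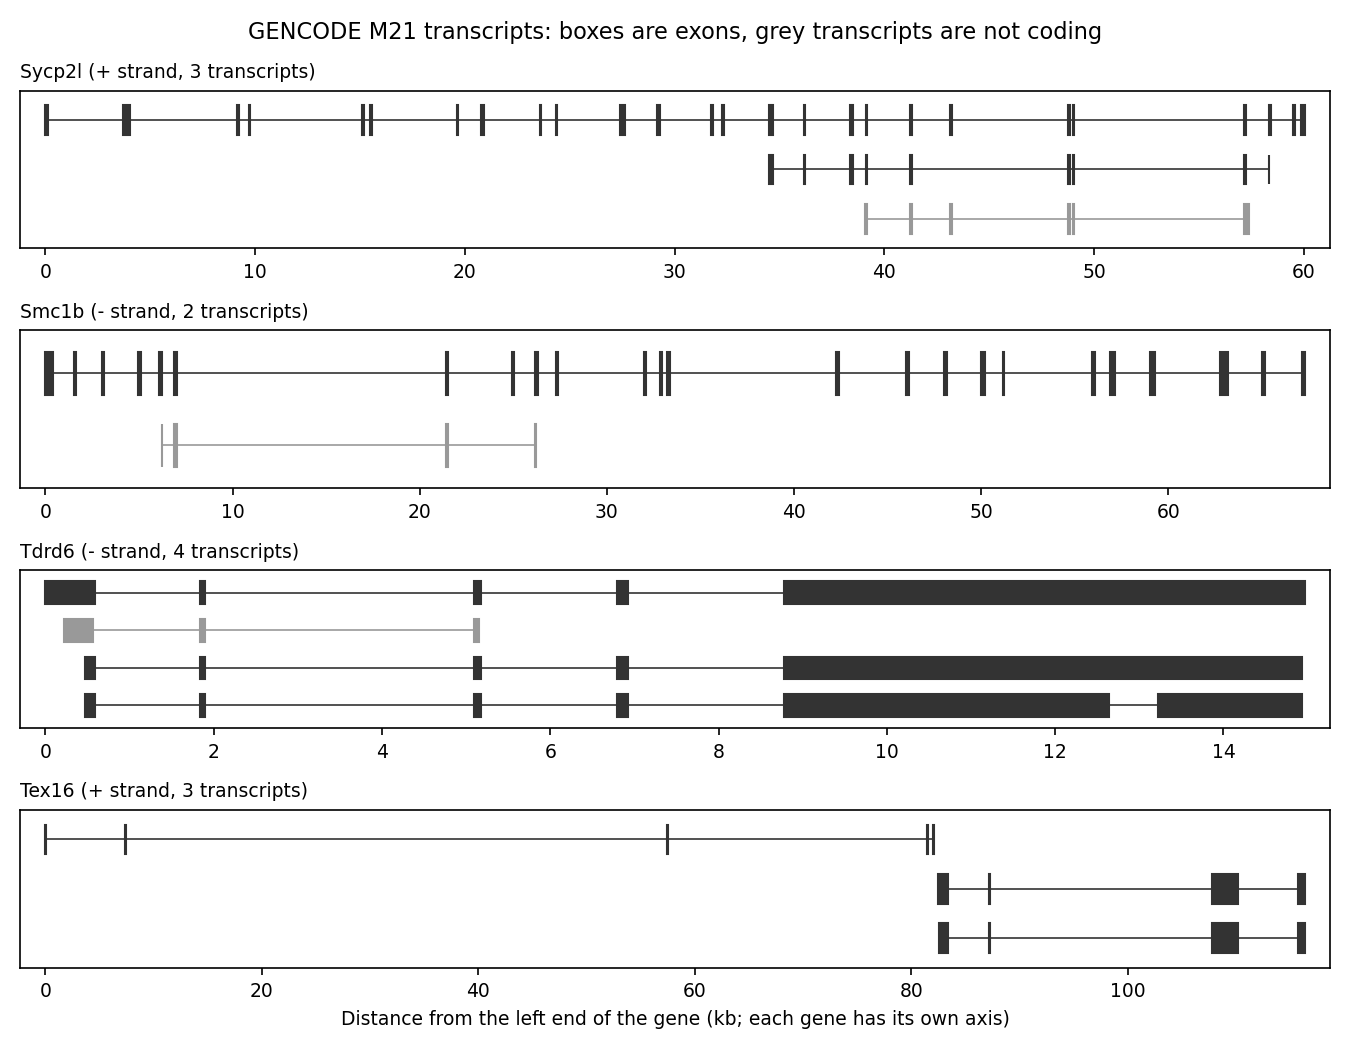
GENCODE M21 transcripts of the 4 genes by distance in kb from the left end of each gene, with exons as boxes, coding transcripts in black and other transcripts in grey; genes on the minus strand start at the right. Tdrd6 is dominated by an exon of 6193 bases, and the 3 transcripts of Tex16 fall into blocks 406 bp apart.

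The other genes of the germline programme were then counted from lists by role, chosen with earlier results of these data known. The background is the share of all 21924 annotated protein-coding symbols that were listed, 2.51% in either table, 1.58% as lower and 0.935% as higher. Over all germline lists 17 of 337 symbols, 5.04%, were listed, 11 as lower and 7 as higher with Tex16 in both. Since the 4 genes described above were taken from the tables, the count was also made without them, at 13 of 333 or 3.90%, with 9 lower and 4 higher. Which other genes were tested is not given in the sources used here, so nothing particular to the germline is read from these shares.

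Few partners of the 4 genes were listed with them. Only 2.51% of all protein-coding symbols were listed in either table, so lists as short as these may hold few or none. Nothing about the partners is read from their absence. Of 6 meiotic cohesin genes Smc1b alone was listed, and Rec8, Rad21l and Stag3, which encode subunits that work with it, were in neither table. None of the 14 cohesin genes of all dividing cells was listed, among them Smc1a, the somatic counterpart, and Smc3. Of 14 synaptonemal complex and axis genes Sycp2l alone was listed, and its relative Sycp2, the transverse filament gene Sycp1 and the axis gene Sycp3 were not. A gene missing from the tables may still have changed, since its value was not analysed here.

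Of 29 genes in meiotic recombination 2 were listed, or 6.90% against a background of 2.51% in either table. Both were on the lower side, and they encode partner subunits of a single enzyme. SPO11 is the topoisomerase-like protein that makes the DNA breaks from which recombination starts, and RefSeq pairs the symbol Gm960 with Top6bl, whose product is its partner subunit. The authors' deposited table gave -1.83 for Spo11, rank 435 of 722, and -2.81 for Gm960, rank 74. Sycp2l and Smc1b were listed in the opposite direction, but they were chosen from the tables. Smc1b and Spo11 also had absolute values below the median of their own table. Nothing about meiosis is read from this contrast.

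Of 33 genes of tudor proteins, the piRNA pathway and germ granules, 3 were listed, or 9.09% against a background of 2.51% in either table. All 3 were lower, a direction with a background of 1.58%, which was set beside them with the direction known. The count includes Tdrd6, which was chosen from the tables, and 2 genes remain without it. Besides Tdrd6 these were Boll, an RNA-binding protein of the DAZ family needed for spermatid development, at -2.39, and Spocd1, which directs piRNA-guided DNA methylation in fetal male germ cells, at -1.996 in the authors' deposited table. Among the 8 Tdrd-named genes Tdrd6 was the only listed one, and Piwil1, which encodes a PIWI partner of the chromatoid body, was not listed.

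Of the 35 genes in the list of spermatids and sperm 3 were listed, or 8.57% against a background of 2.51% in either table. All 3 were higher, a direction with a background of 0.935%, which was set beside them with the direction known. The split depends on how genes were assigned to lists, since Tdrd6, Boll and the sperm antigen gene Spag8, which also have spermatid or sperm roles, were listed as lower and stand in another list or in none. The authors' deposited table gave 2.41 for Zpbp and 2.17 for Spaca1, which encode proteins of the acrosome, and 1.96 for Catsper2, a subunit gene of the sperm calcium channel. Of 21 spermatogonial genes only Lhx1, also a regulator of early embryonic patterning, was listed, and the authors' deposited table gave it -1.77. None of the 12 genes of meiotic entry, 17 of primordial germ cells and 25 of oocytes was listed. Sycp2l, described above as an oocyte protein, was counted in the synaptonemal complex list and not in the oocyte list. Since 2.51% of protein-coding symbols were listed in either table, lists of this length may hold none. Nothing is read from these absences.

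Families named for testis expression were mixed. Of 38 Tex-named genes Tex16 and Tex26 were listed, or 5.26% against a background of 2.51% in either table. Tex16 was chosen from the tables, and Tex26 was listed as higher at 1.998 in the authors' deposited table. Of 108 genes in X-linked germline families 3 were listed, or 2.78% against the background of 2.51%. Apart from Tex16, which was chosen from the tables, these were Luzp4 at -1.69 and Mageb4 at -1.69 in the authors' deposited table. Of 29 Spata-named genes 2 were listed, or 6.90% against the background of 2.51%. The authors' deposited table had Spata9 at -2.12 and Spata18 at -1.66. Nothing particular to these families is read from the shares. Mageb4 belongs to a multigene family, and whether its reads are shared with close copies was not tested.

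None of the 26 genes of germline silencing, among them E2f6, was in either table. The same was true of 15 embryonic stem cell markers and of 10 fibroblast and feeder markers. With a background of 2.51% in either table, lists of this length may hold none, so nothing is read from these counts. By their deposited descriptions Sycp2l and Tex16 are named for the synaptonemal complex and for testis expression, Tdrd6 for its tudor domains and Smc1b for its protein family. Levels were not in the tables analysed, so the cell type named in the labels could not be checked against its markers, and the part of other cell types in the values above was not tested.

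**Figure D4:**
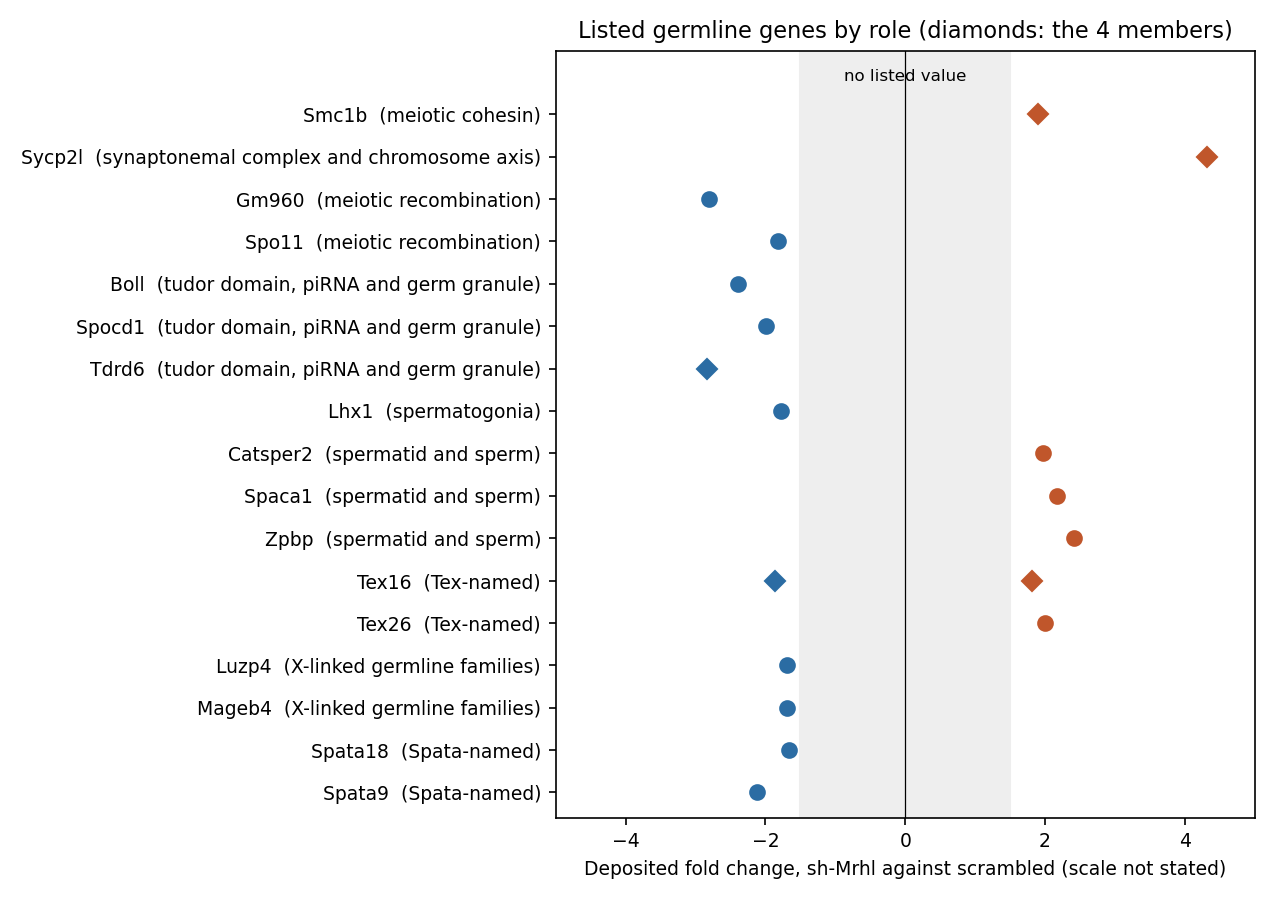
Deposited fold change (x axis, scale not stated) of every listed gene of the germline lists, ordered by role, blue for the lower and orange for the higher table, with diamonds for the 4 genes and a grey band where no gene was listed. The recombination and germ granule genes lie on the lower side from -2.84 to -1.83, the 3 spermatid and sperm genes lie on the higher side from 1.96 to 2.41, and Tex16 has a point on each side.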

How the data were processed

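Per the labels' protocols, total RNA from Trizol was DNase I-treated before TruSeq RNA library preparation. TopHat2, Cuffdiff and mm10 are named in the submitters' processing notes, with no version, annotation, test or threshold. The deposited values are 1 signed fold change per gene, handled as a score because the column headers do not state its scale. Depth per library is unknown, and so is the precision of each value.

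The 4 genes, the lists and the motifs were chosen with earlier results of these data known. Each symbol was counted 1 time per table. Positions and gene types came from GENCODE M21 on GRCm38. Of the symbols written in the role lists, 254 were found there directly, 6 through RefSeq synonyms, and 3 were not matched. The genes named are the 4 genes, each listed gene of the germline lists, and the nearest listed and protein-coding genes. A likeness over libraries could not be computed with 1 value per gene, so ranks are given. Promoter windows came from RefSeq, GRCm38.p6, which held windows for 3 of the 4 genes. Runs of 50 bases were compared over all GENCODE M21 transcripts on both strands. The tests planned for counts or FPKM per library were not run, since the tables held none. The counting of shared runs, motifs and CpG pairs was tested on simulated data. Alternatives restricted the tables to absolute values of at least 2, counted every row, left out symbols in both tables, or used another set of annotated genes. The software was Python 3.11.15 with matplotlib 3.10.9, pandas 2.3.3, scipy 1.17.1 and numpy 2.4.6.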

Additional observations from a re-analysis of the deposited data

How the results depend on the processing

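Among protein-coding symbols alone, the share of the table at or beyond a gene moved from 58.6% to 65.7% for Smc1b and from 9.70% to 12.4% for Tdrd6. For the higher entry of Tex16 it moved from 67.9% to 74.4%. These were outside the exact binomial interval (95%) of the first value, and no rank moved so far when every row was counted. That interval takes the symbols of a table as independent draws, and the protein-coding symbols are part of the same table. It was used only as a yardstick and measures no replicate error of a rank. With absolute values of at least 2, the germline lists had 4 lower and 3 higher symbols in place of 11 and 7. Without the 4 genes, an alternative chosen after the data were seen, they had 9 and 4. The background fell with that minimum to 1.09% in either table, 0.725% lower and 0.369% higher, and over all 55341 annotated symbols it was 2.04%, 1.30% and 0.739%. Runs of 100 bases, also chosen after the data were seen, put the share of Tex16 runs found in Gm45194 at 1.01%. The cause was not tested, apart from the smaller number of symbols that a minimum leaves. Of 102 alternative counts for single lists 11 moved by over 1.5 times or fell to none, most of them with the minimum of 2. Most of the 102 started from a list with no listed symbol in that direction and could not move. The 11 therefore do not measure how stable the counts are. No paired analysis was possible because libraries have no values of their own in the tables. Leaving out each library, the replicate block, pseudocounts, other normalizations and filters on low values could not be run either. The limits that depth sets are unknown, as no depth is given.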

Other observations

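Promoter windows were also examined for all listed germline genes, the 4 genes included, after their values had been seen, and are given as a description with no test. Of the 6 genes listed only as higher that have a window, 4 held the E2F core in at least 1 window, namely Smc1b, Sycp2l, Spaca1 and Tex26. Without the 4 genes it was 2 of 4. Of the 7 listed only as lower, Boll alone held it. The core contains a CpG pair and follows CpG content, being present in 45.4% of the 11356 windows with at least 15 CpG pairs and in 6.50% of the 21461 windows with fewer. By the window with the most CpG pairs for each gene, the higher genes ranged from 7 to 41 and the lower genes from 1 to 39, with at least 15 CpG pairs in 5 of the 6 higher and 3 of the 7 lower genes. Without the 4 genes it was 3 of the 4 higher genes. The split rests on the cut of 15. Tex26, with 15 CpG pairs, and Spaca1 and Sycp2l, with 16 each, only just reached it. The lower genes Spata18, Lhx1 and Boll had 30, 31 and 39. No difference in CpG content between higher and lower genes is therefore read from this small set, and the part of CpG content in the count of cores was not tested. Catsper2, with 41 CpG pairs and no core, and Lhx1, with 31 and none, show that a window rich in CpG need not hold it.

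A search of the deposited descriptions for words such as testis, sperm and meiotic, made after the values were seen, found 12 entries, of which 2 were outside the lists. These were Adad1, which encodes a testis-specific RNA-binding protein, at -2.52 and the sperm antigen gene Spag8 at -2.41 in the authors' deposited table, both on the lower side. The 12 entries include both of Tex16 and those of Tdrd6 and Sycp2l, which were chosen from the tables. Only listed genes were searched, so no share over all genes stands beside the count and nothing is read from it.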
